A study of Mus musculus with 6 samples.

Results

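Melanin is the dark pigment of the retinal pigment epithelium (RPE), and 10 genes of its synthesis and of the melanosome, the organelle that holds it, were described in the retina plus RPE of control and efavirenz (EFV)-treated 5XFAD mice. The genes were Tyr, Tyrp1, Dct, Pmel, Mlana, Oca2, Slc45a2, Slc24a5, Gpr143 and Mitf, chosen by name for their known roles and not by a measured value. All 10 were among the 19401 genes and unnamed transcribed features listed in the 6 libraries. RNA was sequenced from 3 control and 3 EFV-treated pools, each made of 1 retina plus RPE from each of 5 to 6 male mice at 9 months of age. EFV, an anti-HIV drug that at a low dose activates the cholesterol-hydroxylating enzyme CYP46A1, was given in drinking water from 3 to 9 months of age at 0.08 mg/kg according to the labels, while the methods of the study give a slightly higher daily dose. Control mice drank water with the same small amount of Tween 80. Mice of both groups were hemizygous for transgenes of mutant human amyloid precursor protein and mutant human presenilin 1, which are driven by the neuronal Thy1 promoter, were offspring of a cross to wild type B6SJL females, and were free of the rd1 and rd8 alleles of Pde6b and Crb1. The SJL parent of the B6SJL background is an albino strain, and neither the coat color nor the Tyr genotype of the pooled mice was analysed here. The question was whether RNA of the pigment genes differed between treated and control pools.

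In pigment cells, melanin is made inside melanosomes from tyrosine. Tyrosinase performs the rate-limiting first step, and dopachrome tautomerase and tyrosinase-related protein 1 act on later intermediates of the black-brown pigment. Melanosomes form on amyloid-like fibrils of PMEL, and membrane transporters set their ion content and pH. In the RPE, most pigment is laid down before and around birth, and the enzymes fall to low levels in the adult. MITF, a basic helix-loop-helix factor, drives many of these genes through the M box, an extended E box.

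The promoters of the 3 enzyme genes are shown because each holds the letters TCATGTGCT, the core of an M box, in the strand of the gene. The sequences are from RefSeq (build GRCm38.p6), run 5′ to 3′ from 250 bases before to 50 bases after the annotated start site, and carry the core in capitals. The Tyr promoter is chr7:87493463-87493762 on the minus strand, that of Tyrp1 is chr4:80833963-80834262 on the plus strand, and that of Dct is chr14:118052197-118052496 on the minus strand.
Tyr: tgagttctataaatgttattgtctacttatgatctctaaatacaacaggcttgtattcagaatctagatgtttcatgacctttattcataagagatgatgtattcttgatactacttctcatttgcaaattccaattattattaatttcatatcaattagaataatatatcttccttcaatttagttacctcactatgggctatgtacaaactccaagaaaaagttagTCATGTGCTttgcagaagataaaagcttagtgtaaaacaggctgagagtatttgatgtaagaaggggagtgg
Tyrp1: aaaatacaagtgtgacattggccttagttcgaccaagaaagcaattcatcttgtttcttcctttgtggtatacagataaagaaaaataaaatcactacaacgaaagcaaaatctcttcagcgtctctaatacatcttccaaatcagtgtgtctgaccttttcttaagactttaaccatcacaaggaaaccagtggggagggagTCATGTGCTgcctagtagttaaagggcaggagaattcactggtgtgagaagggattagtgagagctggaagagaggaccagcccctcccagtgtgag
Dct: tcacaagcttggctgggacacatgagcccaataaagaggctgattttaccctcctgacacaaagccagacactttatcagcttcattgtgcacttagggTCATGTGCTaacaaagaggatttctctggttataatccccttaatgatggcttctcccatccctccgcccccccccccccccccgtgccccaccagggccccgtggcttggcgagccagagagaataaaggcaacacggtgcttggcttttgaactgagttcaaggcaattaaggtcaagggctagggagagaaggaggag
The core begins 22 bases before the start site in Tyr, 47 bases before it in Tyrp1 and 151 bases before it in Dct. Of 32851 promoters of the same length, 134 (0.408%) hold TCATGTGCT on either strand. The table of promoters covered 6 of the 10 genes, with 8 promoters, and none of the other 5 promoters, which belong to Mitf, Oca2 and Slc24a5, holds these letters. The shorter TCATGTG, which lies within the longer core, is also in the Slc24a5 promoter, on the opposite strand, and in 3.77% of all promoters. The still shorter E box CATGTG is in 14.2%. These matches describe letters only, and binding was not measured here.

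The values are expected counts (reads assigned to a gene) and FPKM (fragments scaled to transcript length and library depth), which allows levels of genes of different length to be compared. The libraries held from 23455167 to 24590278 counts. At this depth most pigment genes were low. Over the 6 libraries, mean FPKM was 10.98 for Slc24a5, 2.25 for Dct, 1.86 for Mitf, 1.26 for Pmel, 1.22 for Tyrp1, 0.903 for Mlana, 0.473 for Tyr, 0.292 for Oca2, 0.127 for Gpr143 and 0.115 for Slc45a2. The ranges of neighbors in this order were apart only between Slc24a5 and Dct and between Tyr and Oca2. Dct exceeded Mitf in 3 of 6 libraries, Pmel exceeded Tyrp1 in 3 of 6, and Gpr143 exceeded Slc45a2 in 2 of 6, so the order of these pairs was within the spread. The rank of Mlana above Tyr is uncertain, because Mlana was scaled to 461 bases while its annotated protein-coding transcript has 906.

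**Figure D1:**
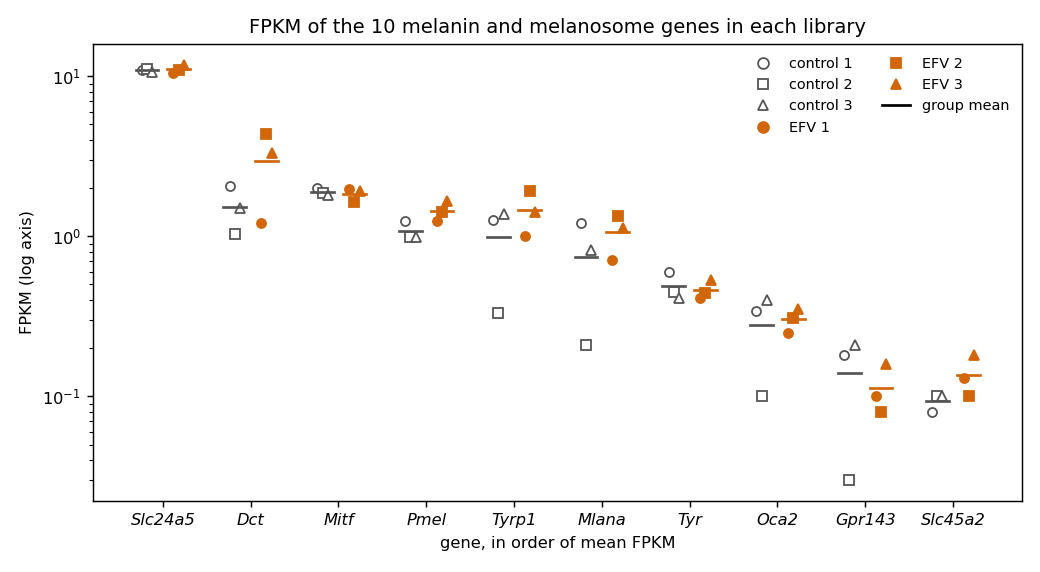
FPKM (log axis) of each of the 10 genes, ordered by mean level, with control pools as open and EFV-treated pools as filled symbols, the pool number as the symbol shape and the group mean as a line. Slc24a5 lies near 11 in every library, whereas Dct, Tyrp1, Mlana, Oca2 and Gpr143 are each lowest in control 2.

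Of the 10 genes, 8 could be tested for a difference between EFV-treated and control pools, and none of the 8 passed the edgeR test. The higher group means were those of Dct, with a fold change of 1.91, Tyrp1 (1.44), Mlana (1.38) and Pmel (1.32), but treated and control pools overlapped for every one of them. Tyr, Mitf, Slc24a5 and Oca2 had fold changes between 0.918 and 1.066. The filter on low counts (10 or more counts in 3 or more libraries) kept all but Slc45a2 and Gpr143. Of the 8 tested, 7 were higher and 1 (Tyr) was lower in the treated group, with a median log2 fold change of 0.24, while 50.5% of all 15537 genes tested were higher and their median was 0.0012. The adjusted p of edgeR was 0.999 for each of the 8. No gene of the genome was called at an adjusted p of 0.05 (0% of 15537), although 472 had an unadjusted p of at most 0.05. DESeq2 called 11 genes, none of them a pigment gene, and limma called 0. At the limits stated in the methods of the study, an unadjusted p of at most 0.05 together with a small minimum fold change, 0 of the 8 passed when the p was that of edgeR, against 3.01% of all genes tested. The study based its p on the Poisson distribution, which has no term for the spread between pools. In a Poisson model fitted here, 3 of the 8 (Dct, Pmel and Tyrp1) were past the same limits, against 14.8% of all genes tested. None of these 3 is among the genes that the study lists as changed with its own p. That list is also far shorter than the 2305 genes past the limits in the model fitted here. Elsewhere in the text, past the limits of the study refers to the p of edgeR. Treated and control pools did not overlap in scaled counts for 0 of the 8, against 8.14% of all genes tested. With 3 pools against 3, an interval as wide as these does not show that expression was alike.

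**Figure D2:**
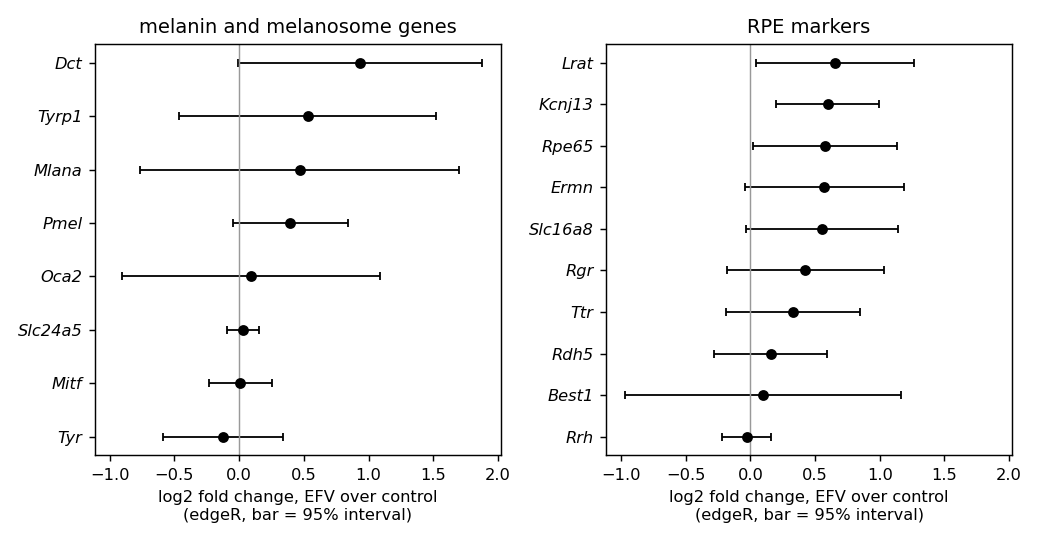
Log2 fold change of EFV-treated over control pools (edgeR; point, estimate; bar, 95% interval) of the 8 tested pigment genes (left) and of 10 markers of the RPE (right). The intervals of all 8 pigment genes include 0, and those of Lrat, Kcnj13 and Rpe65 among the RPE markers do not.

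Among the enzymes, Dct (Entrez 13190, chr14:118012790-118052246), which encodes dopachrome tautomerase, had FPKM of 2.05, 1.04 and 1.51 in control 1 to 3 and of 1.21, 4.37 and 3.31 in EFV 1 to 3. The corresponding counts were 112, 54 and 82, and 66, 236 and 178. EFV 2 and EFV 3 lay above every control pool, and EFV 1 lay below 2 of the 3. The group means were 1.53 ± 0.505 and 2.96 ± 1.61 FPKM (SD, n = 3 each). The log2 fold change was 0.94 with an SE of 0.42 and a 95% interval from -0.0075 to 1.88. Pools of the same group differed far more than counting error allows, with a chi-square of 28.0 per degree of freedom within groups, the highest of the 10 genes. With 1 library left out, the log2 fold change of Dct ranged from 0.53 without EFV 2 to 1.31 without EFV 1. Dct was past the limits of the study without EFV 1 and without control 1, with an adjusted p in edgeR of at least 0.926, and not in the other 4 of these fits.

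Tyrp1 (Entrez 22178, chr4:80834123-80851736), which encodes tyrosinase-related protein 1, had FPKM of 1.27, 0.33 and 1.37 in control 1 to 3 and of 1.00, 1.93 and 1.42 in EFV 1 to 3. Control 2 stood apart, with 21 counts against 84 and 90 in the other controls, and the treated pools, at 66, 126 and 92 counts, surrounded those 2. Its log2 fold change was 0.53 with an SE of 0.44 and an interval from -0.47 to 1.52. It was 0.12 without control 2. The mean of control 1 and control 3 was 1.32 FPKM, against 1.45 ± 0.466 (SD, n = 3) in the treated group. The within-group chi-square per degree of freedom was 15.3.

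Tyr (Entrez 22173, chr7:87424771-87493512), the gene of tyrosinase, had FPKM of 0.60, 0.45 and 0.41 in control 1 to 3 and of 0.41, 0.44 and 0.53 in EFV 1 to 3. Control 1 was the highest pool, and the others of both groups were interleaved. The group means were 0.487 ± 0.10 and 0.460 ± 0.062 FPKM (SD, n = 3 each), and the log2 fold change was -0.12 (SE, 0.21; interval, -0.59 to 0.34). Tyr did not show the low value in control 2 that Dct and Tyrp1 had, and its highest and lowest libraries differed by 1.46 times, against 4.202 times for Dct and 5.85 times for Tyrp1. The 3 genes whose promoters hold the M box core did not vary alike over the libraries. The summed FPKM of the 3 enzymes was 3.92, 1.82 and 3.29 in control 1 to 3 and 2.62, 6.74 and 5.26 in EFV 1 to 3.

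Of the melanosome matrix and membrane proteins, Pmel (Entrez 20431, chr10:128695888-128720238), which forms the fibrils on which melanin is deposited, had FPKM of 1.25, 0.99 and 0.99 in control 1 to 3 and of 1.24, 1.41 and 1.66 in EFV 1 to 3. EFV 2 and EFV 3 exceeded every control pool, and EFV 1 lay just below control 1. The group means were 1.08 ± 0.150 and 1.44 ± 0.211 FPKM (SD, n = 3 each). A log2 fold change of 0.40 (SE, 0.20; interval, -0.048 to 0.84) was measured, and it stayed between 0.29 and 0.51 with any 1 library left out. The spread of Pmel within groups was near counting error, at a chi-square of 1.32 per degree of freedom. In RefSeq the Pmel locus overlaps Cdk2 over 7114 bases, Rab5b over 397 and Dgka over 108. GENCODE has a shorter Pmel, which starts at chr10:128704195, beyond the RefSeq end of Rab5b. There Cdk2 lies on the opposite strand and ends at 128705031, so the overlap with it is shorter. Cdk2 was at 0.80 to 1.22 FPKM, Rab5b at 40.8 to 45.1 and Dgka at 2.57 to 2.90. Whether reads were counted by strand is not given in the sources used here, and the share of reads from these neighbors was not tested.

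Mlana (Entrez 77836, chr19:29697541-29708447), a melanosomal membrane protein known as MART-1, was low, with 12, 2 and 8 counts in control 1 to 3 and 7, 13 and 11 in EFV 1 to 3. The FPKM were 1.21, 0.21 and 0.82, and 0.71, 1.34 and 1.13. They rest on a deposited length of 461 bases, whereas the annotated protein-coding transcript has 906, so the level is uncertain. Again control 2 was the lowest and the other 5 libraries were interleaved. The log2 fold change of 0.47 (SE, 0.55; interval, -0.76 to 1.70) was 0.047 without control 2.

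Among the transporters, Slc24a5 (Entrez 317750, chr2:125068127-125088677), a potassium-dependent sodium-calcium exchanger of pigment cells, was the most abundant and the steadiest. Its FPKM was 10.9, 11.1 and 10.6 in control 1 to 3 and 10.44, 10.99 and 11.8 in EFV 1 to 3, a range of 1.13 times. Its log2 fold change was 0.03 with an SE of 0.05 and an interval from -0.092 to 0.16. This level is uncertain as a measure of the exchanger. The files assign 4 transcripts to the gene, 3 of which are unnamed ones assembled by the sequencing provider, and give it a mean length of 4183 to 4607 bases. The longest annotated protein-coding transcript has 1954 bases. In RefSeq the gene also overlaps Myef2 over 7703 bases (chr2:125080975-125088677), and GENCODE, with a shorter Myef2, places that gene on the opposite strand. Myef2 was at 31.69 to 34.95 FPKM. The share of reads from Myef2 was not tested.

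Oca2 (Entrez 18431, chr7:56239593-56536518), a melanosomal anion transporter, had 26, 7 and 30 counts in control 1 to 3 and 19, 23 and 26 in EFV 1 to 3. Control 2 was low and the treated pools lay below both other controls or level with the lower of them. The log2 fold change was 0.09 (SE, 0.44; interval, -0.90 to 1.09) and was -0.31 without control 2. Slc45a2 (Entrez 22293, chr15:11000721-11029233), another transporter of the melanosome, had 6, 7 and 7 counts in the control pools and 9, 7 and 13 in the treated ones. Gpr143 (Entrez 18241, chrX:152781921-152808651), the receptor mutated in ocular albinism, had 7, 1 and 8 against 4, 3 and 6. Both were too low to be tested. Summed over pools and corrected for depth, the ratio of treated to control counts was 1.44 for Slc45a2 (exact 95% interval, 0.786 to 2.68) and 0.806 for Gpr143 (0.357 to 1.79). These intervals cover counting error only, and a difference was not detectable at this depth.

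Mitf (Entrez 17342, chr6:97807002-98021360), the transcription factor, had FPKM of 2.00, 1.86 and 1.81 in control 1 to 3 and of 1.97, 1.63 and 1.91 in EFV 1 to 3. The groups overlapped and the libraries differed by 1.23 times at most. Its log2 fold change was 0.01 (SE, 0.11; interval, -0.24 to 0.25). The values of Mitf sum its isoforms, of which the RPE uses only some, and therefore do not measure the RPE forms alone.

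**Figure D3:**
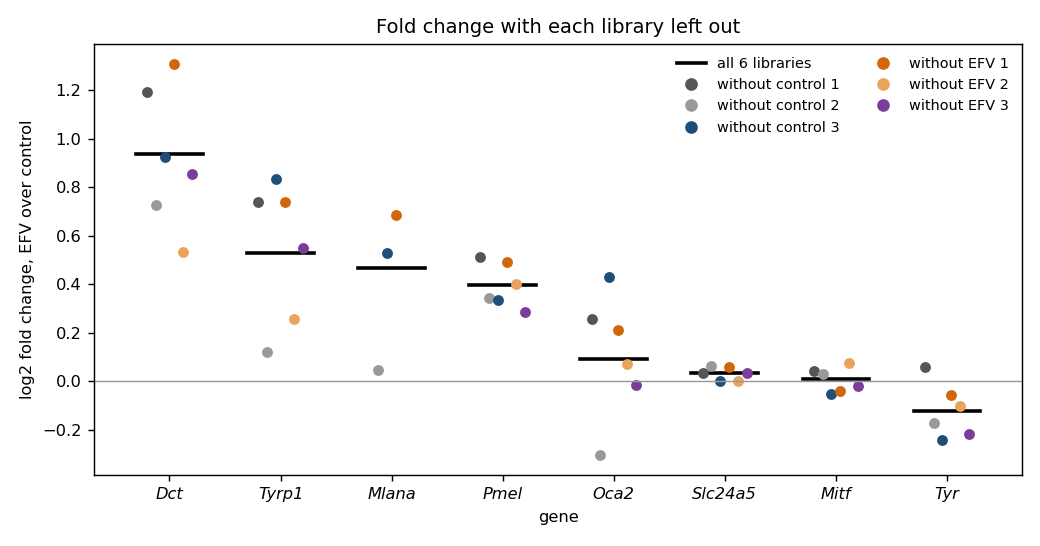
Log2 fold change (EFV-treated over control, edgeR) of the 8 tested genes with all 6 libraries (line) and with each library left out (points, colored by the library); no point is drawn where a gene was no longer tested. Dct and Pmel stay above 0 throughout, whereas Tyrp1 (0.12) and Mlana (0.047) come close to 0 and Oca2 (-0.31) lies below it without control 2.

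The pools that were high or low were shared by several of the genes. Control 2 was the lowest library for 6 of the 10, tied with control 3 in Pmel, and EFV 2 and EFV 3 were the highest for 3 each. With Slc24a5 set aside, the summed FPKM of the other 9 genes was 8.98, 5.11 and 7.62 in control 1 to 3 and 7.02, 11.6 and 10.7 in EFV 1 to 3. EFV 1 lay among the controls.

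Markers of the RPE, the pigmented layer of the tissue, were summed in the same way. The list held 10 genes, among them Rpe65, Lrat and Rgr of the visual cycle, the channels Best1 and Kcnj13, the lactate transporter Slc16a8 and the thyroxine carrier Ttr. All were detected in every library. Their summed FPKM was 76.4, 47.0 and 74.8 in control 1 to 3 and 71.9, 84.4 and 83.1 in EFV 1 to 3. This sum placed the 6 libraries in the same order as the sum of the 9 pigment genes. Ttr and Rrh, the most abundant of the markers, weigh most in it, and the order differed when each marker had equal weight on a log scale (below). Control 2 was the lowest library for 8 of the 10. Of the 10, 9 were higher in the treated group, with a median log2 fold change of 0.49, and 3 were past the limits of the study, beside 50.5% and 3.01% of all genes tested. These were Kcnj13 (log2 fold change, 0.60), Lrat (0.65) and Rpe65 (0.58), each with an adjusted p of 0.999 in edgeR. All 3, and Slc16a8 as well, are among the genes that the study lists as higher with its own p, from these same libraries. Log2 fold changes were 0.57 for Ermn, 0.55 for Slc16a8, 0.43 for Rgr and 0.33 for Ttr. They were nearer 0 for Rdh5 (0.16), Best1 (0.10) and Rrh (-0.029), the only lower marker. With 1 library left out, from 1 (without EFV 2) to 5 (without control 3) markers were past the limits, and Kcnj13 was among them each time. Of all genes tested, 2.52% to 3.73% were past the limits in these fits. Rpe65 was lost without control 1, EFV 1, EFV 2 or EFV 3, and Lrat without control 1, control 2, EFV 1 or EFV 2. With 1 library left out, the median of the pigment genes was 0.036 without EFV 3, 0.055 without control 2, 0.076 without EFV 2 and 0.26 to 0.38 otherwise. Mlana was not tested without control 1, EFV 2 or EFV 3. The pigment medians of those fits cover 7 genes and are not directly comparable with the others. The median of the RPE list was 0.25 without control 2 and 0.40 to 0.61 otherwise. In bulk tissue, fewer RPE cells in a pool and less RNA per cell cannot be told apart, and the part of the RPE content in the values of the pigment genes was not tested.

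**Figure D4:**
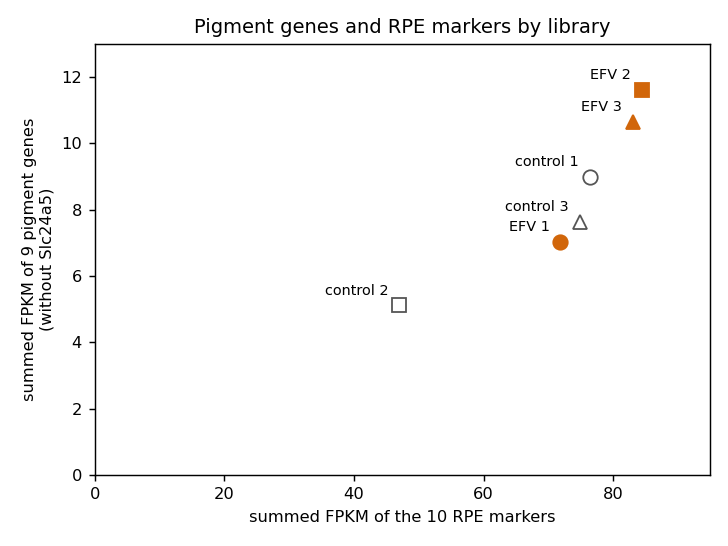
Summed FPKM of 9 pigment genes (all but Slc24a5) against the summed FPKM of 10 RPE markers, 1 point per library, both axes from 0. Control 2 is lowest on both axes at 5.11 and 47.0, EFV 2 is highest on both at 11.6 and 84.4, and EFV 1 lies beside the other 2 controls.

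The level of each pigment gene was also set against the RPE in the same library, as log2 FPKM minus the mean log2 FPKM of the 10 RPE markers. The RPE mean itself was 0.42 higher in the treated group, and control 2, at 0.92, lay below control 1 (1.48) and control 3 (1.58). EFV 1 to 3 were at 1.60, 1.76 and 1.87. In this mean EFV 1 lay just above every control and EFV 3 above EFV 2, unlike in the summed FPKM. On this scale, Dct was -0.44, -0.85 and -0.98 in control 1 to 3 and -1.31, 0.37 and -0.14 in EFV 1 to 3. The treated pools spanned the controls, with means of -0.76 ± 0.28 and -0.36 ± 0.86 (SD, n = 3 each). The relative level of Pmel differed by -0.0051 between the groups. The genes that were steady in FPKM were lower relative to the RPE in the treated group, with differences of -0.49 for Tyr, -0.46 for Mitf and -0.39 for Slc24a5. For an unchanged gene, such a difference follows from the higher RPE mean alone. Tyrp1 and Mlana had differences of 0.32 and 0.36. The mean log2 scaled count of the 10 markers was also used as a covariate in the edgeR fit. Because the markers were themselves higher in the treated group, 6 libraries separate group and covariate poorly in this fit. In it 4 of the 8 genes were higher and 4 lower, the median log2 fold change was -0.066, and Dct was at 0.21. Tyrp1 (-0.50) and Mlana (-0.56) had the opposite sign to their differences relative to the RPE mean, and Oca2 was past the limits of the study in the lower direction at -0.87.

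Other genes of the melanosome and of pigment cells were read from 5 lists. Of their 53 genes, 50 were tested, 27 were higher and 23 lower, and the median log2 fold change was 0.02. Only Gpnmb of the 50 was past the limits of the study, beside 3.01% of all genes tested, and no gene was called at an adjusted p of 0.05. Gpnmb, a membrane glycoprotein related to PMEL and made by pigment cells and by phagocytes, had FPKM of 2.30, 1.55 and 2.11 in control 1 to 3 and of 2.26, 3.43 and 3.27 in EFV 1 to 3. Its log2 fold change was 0.57 (SE, 0.19; adjusted p = 0.999 in edgeR), and EFV 1 overlapped the controls, as it did for Dct. Gpnmb is also among the genes that the study lists as higher after EFV. Without EFV 2, Gpnmb was no longer past these limits. With 1 library left out, 0 to 4 of the 50 genes were past them, beside 2.52% to 3.73% of all genes tested.

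Of the complexes that build the melanosome and related organelles (BLOC-1, the Hermansky-Pudlak proteins, AP-3 and the Rab proteins of the pathway), all 21 genes were tested, 8 were higher and 13 lower, and their median was -0.015. Bloc1s2, a BLOC-1 subunit, and Vps33a, a tethering protein, had the lowest p of this list, with log2 fold changes of 0.17 and -0.09. Both were past the limits of the study without control 1, and Bloc1s2 also without EFV 1. Dtnbp1, dysbindin of BLOC-1, was the most abundant at 46.7 FPKM in controls and 46.3 in treated pools. Of 6 genes of melanosome transport, 4 were higher and 2 lower. Myo7a, the myosin that moves melanosomes in the RPE, had FPKM of 1.87, 2.06 and 1.38 in control 1 to 3 and 1.39, 1.51 and 1.38 in EFV 1 to 3, with a log2 fold change of -0.33 (SE, 0.15). Rab27a, which links melanosomes to the motor, was at 3.73 and 4.31 FPKM (log2 fold change, 0.19), and Myo5a, the myosin of melanocytes, was the most abundant at 19.7 and 19.9 FPKM. None of the 3 passed either threshold in edgeR with all 6 libraries. The study, with its own p, lists Myo7a among the genes lower after EFV. Myo7a was past the limits of the study, lower in treated pools, with the replicate number as a block and without control 3, and Rab27a was past them, higher, without control 2 and without EFV 1.

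The 9 other pigment organelle proteins had a median of 0.05, and the tetraspanin Cd63, the most abundant, was at 44.0 and 47.2 FPKM. Of 8 relatives of Mitf and regulators of the RPE, 7 were tested and 6 were higher, with a median of 0.05. Otx2, the most abundant and also expressed in photoreceptors and bipolar cells, was at 134.5 and 140.9 FPKM (log2 fold change, 0.04), Tfe3, a relative of Mitf, had a log2 fold change of -0.09, and Usf1, an E box factor, had 0.06. Tfec, another relative of Mitf, reached 1 count at most. Genes of signaling and lineage in melanocytes, the pigment cells of the choroid, were at mixed levels. Kit was at 1.12 to 1.29 FPKM, Ednrb at 1.60 to 2.32, Mc1r at 1.42 to 2.41 and Kitl at 2.42 to 2.90. Of the transcription factors of the lineage, Pax3 was at 0 in the 3 controls and EFV 1, with 3 counts at most in EFV 2 and EFV 3, and Sox10 was at 0.18 to 0.31 FPKM in controls and 0.20 to 0.37 in treated pools. Of the 9 genes of melanocyte signaling and lineage, 7 were tested, 4 were higher and 3 lower. Edn3 and Sox10 had the lowest p of that list, both with a log2 fold change of 0.38, and Pomc, the hormone precursor and the most abundant, had -0.04.

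**Figure D5:**
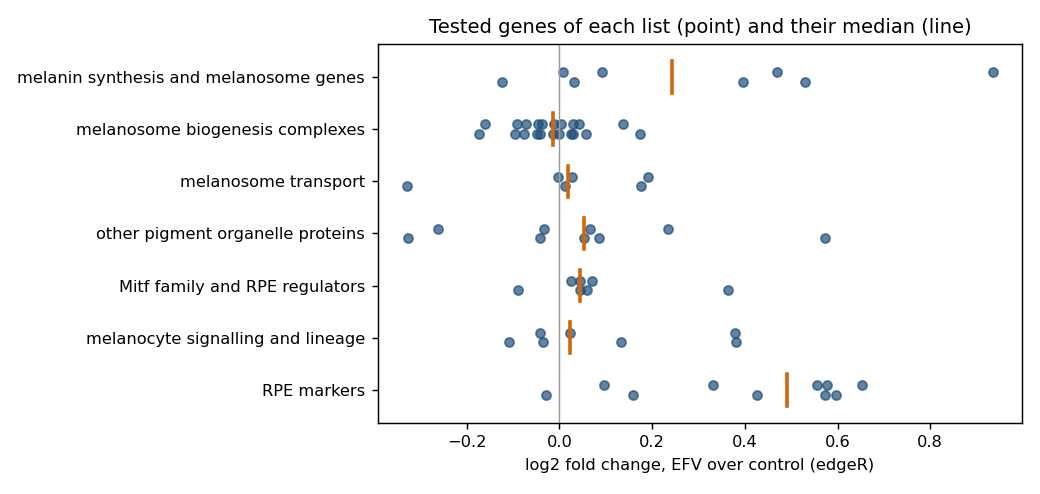
Log2 fold change (EFV-treated over control, edgeR) of each tested gene (point) and the median (line) of the pigment genes, the 5 lists of related genes and the RPE markers. The medians are 0.24 for the pigment genes, between -0.015 and 0.05 for the 5 lists, and 0.49 for the RPE markers.

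Other tissue was present unevenly. The summed FPKM of 6 lens genes was 166 in control 3 and 3.64 to 7.31 in the other libraries, and all 5 of these genes that were tested were past the limits of the study in the lower direction. Control 3 was the highest library for 2 pigment genes (Oca2 and Gpr143) and the lowest for 1 (Tyr), besides the tie in Pmel. With it left out 0 of 8 were past the limits, against 3.39% of all genes tested, and the median was 0.38. Rod genes summed to 22690 to 24370 FPKM. Fibroblast genes summed to 2.55 to 3.18 in controls and 3.15 to 3.88 in treated pools. Of the 5 tested, only Col1a2 was past the limits, in the higher direction (log2 fold change, 0.50). The log2 fold change was 0.38 for Dcn and 0.14 for Pdgfra, and near 0 for Col1a1 (0.03) and Col3a1 (0.02). Smooth muscle genes summed to 5.05 in control 3 and to 2.10 to 2.77 elsewhere, and endothelial genes to 16.5 to 19.2. The smooth muscle sum of control 3 was raised by Acta2 alone (4.41 FPKM, against 1.36 to 2.04 elsewhere). Myh11 (0.27) and Des (0.33) were not raised there.

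The mean standardized profile of the 8 tested pigment genes was low in control 2 and high in EFV 3 and control 1. Among 12295 other genes with a mean of at least 1 FPKM, those most like it over the 6 libraries were Tsta3, Dut, Itm2c, Yars2, Bmpr1b, Ndufa6, Snrpd2, Cacnb3, Gabarapl2 and Uggt2, with Pearson r from 0.981 to 0.993. These r describe 6 points that share depth and pool, and none of the 10 genes belongs to the lists above. The pigment genes themselves had r with this mean from 0.062 (Mitf) to 0.876 (Mlana). The 8 tested ones are part of the mean, which raises their r, whereas the RPE markers are not. Among the RPE markers, r was 0.655 to 0.919 for Rgr, Rdh5, Ttr, Slc16a8, Rpe65 and Ermn, 0.352 for Lrat, 0.337 for Kcnj13, 0.286 for Best1 and -0.258 for Rrh.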

How the data were processed

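Per the labels and the methods of the study, poly-A RNA was sequenced by BGI, and the authors aligned filtered reads to mm10 (HISAT2 2.0.4 and Bowtie2 2.2.5 are named) and deposited, per gene and library, expected counts from RSEM 1.2.12, which are not normalized, and FPKM, in which counts are divided by transcript length and library total. Transcript length in bases was deposited with them. Strand setting and annotation release are not given in the sources used here. A gene not listed in a library was taken as 0.

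Expected counts were rounded and filtered to genes reaching 10 counts in 3 or more libraries (14377 with an Entrez identifier, 1160 unnamed features). Groups were compared in edgeR 4.0.16 under R 4.3.3 (quasi-likelihood F-test; TMM scaling, factors 0.984 to 1.01; group as the only term; two-sided; Benjamini-Hochberg over all genes). Intervals are 95% intervals. Alternatives used DESeq2 1.42.0, limma 3.58.1 on log2(FPKM + 0.1), other scalings and filters, and a Poisson model fitted here. The study names the Poisson distribution as the basis of its threshold, and its list of changed genes differs from that of this model. Scripts were tested on simulated data. Levels relative to the RPE used log2(FPKM + 0.01). Of 17705 Entrez identifiers, 17680 were in the RefSeq table (GRCm38.p6, the build of the files), which gave gene positions; strands and transcript lengths were from GENCODE. The agouti gene was matched by its mouse symbol, a.

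All 10 pigment genes are described. From each list of related genes were named those past the limits of the study, or else the 2 with the lowest p, and the most abundant; of the likeness search, the 10 highest r. The genes, lists and rules were chosen with earlier results of these data known. The pools of a group were separate samples of different mice, and the p-values measure the spread between pools.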

Additional observations from a re-analysis of the deposited data

How the results depend on the processing

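The pigment genes called at an adjusted p of 0.05 were 0 in every alternative except the Poisson model, which has no term for the spread between pools and called 2 of them (Dct and Tyrp1) and 2043 genes in all. DESeq2 called 11 genes in all. At the limits of the study, 1 pigment gene passed with total counts only, with no filter, with 10 counts in all libraries and with Entrez genes only (Dct each time), 1 with limma at pseudocounts of 0.1, 1 and 0.01 (Pmel), 1 with the RPE covariate (Oca2, lower) and 3 with the Poisson model (Dct, Pmel and Tyrp1). Of all genes tested, 2.88% to 3.12% were past these limits with those scalings and filters, and 3.08% to 3.18% with limma. The share was 3.14% with the RPE covariate and 14.8% with the Poisson model. With 1 library left out, the count at these limits was 0 to 2, with Dct and Pmel passing without control 1 and without EFV 1. In those fits 2.52% to 3.73% of all genes tested were past these limits. The count of genes called in all was 0 to 1, that of higher pigment genes 4 to 7 (7 or 8 tested), and that of pigment genes whose groups do not overlap 0 to 3, where 15.9% to 19.0% of all genes tested did not overlap and 48.8% to 50.6% were higher. Of all genes past the limits, 228 were higher and 239 lower, against 288 and 159 with total counts only and 297 and 192 with limma at a pseudocount of 0.1. The RPE covariate left 4 higher pigment genes.

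Of 147 values of single pigment genes under alternatives, 134 kept their direction. With the RPE covariate Tyrp1 was -0.50, Mlana -0.56 and Oca2 -0.87 on the log2 scale. Mitf was -0.042, -0.028 and -0.045 with limma at pseudocounts of 0.1, 1 and 0.01. With 1 library left out, Mitf ranged from -0.051 to 0.076, Oca2 from -0.31 to 0.43, Slc24a5 from -0.00031 to 0.064 and Tyr from -0.24 to 0.057. Dct and Pmel were higher in all 19 alternatives each. Apart from the models and libraries named, the cause of these shifts was not tested.

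The pools were not paired by replicate number in the main fit, and the labels do not say what the numbers stand for. Deviations of same-numbered pools from their group means correlated at 0.125, 0.083 and 0.099, and each pool correlated best with its own number. With a replicate block, 0 pigment genes passed either threshold, while 3.31% of all genes tested were past the limits of the study. In that fit 7 pigment genes were higher, the median log2 fold change of the tested ones was 0.29, and 0 genes were called in all.

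Depth limits Mlana, Oca2, Slc45a2 and Gpr143 most, with 1 to 30 counts per library.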
